A study of Mus musculus with 18 samples.

Results

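The phagocyte NADPH oxidase was followed through 4 of its subunit genes, Cybb, Cyba, Ncf1 and Ncf4, in RNA of eosinophils sorted from the mouse small intestine. They were picked as named subunits of the enzyme, 4 of the 22708 genes of the deposited expression table, and all 4 were high enough to be tested. The 18 bulk samples come from 3 genotypes by label, WT, Ahr-/- and Ahrr-/-, with 3 males and 3 females in each. Ahr encodes a ligand-activated transcription factor, the aryl hydrocarbon receptor (AHR), and Ahrr encodes its repressor. The strain is given as C57/BL6 in the labels, the mice were untreated and, by the methods, 6 to 14 weeks old, and the cells were sorted as CD11b+, MHC-II-, SiglecF+ and SSChi. WT and Ahr-/- mice were neither littermates nor cohoused, so that genotype, litter and housing cannot be told apart. No substrain is given, so a substrain difference could not be told apart from genotype either. The breeding of the mice labelled Ahrr-/- is not given in the sources used here. Tests measure the spread between these samples.

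The oxidase makes superoxide by moving electrons from NADPH across a membrane to oxygen. Its catalytic core, cytochrome b558, is the pair of membrane proteins gp91phox and p22phox, encoded by Cybb and Cyba, and it stays idle until a cytosolic complex joins it with a RAC GTPase. In that complex p47phox (Ncf1) is the organizer that is phosphorylated on activation and p40phox (Ncf4) binds a phosphoinositide on phagosomes, and eosinophils are known for a strong respiratory burst.

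The values are the authors' variance-stabilized log2 expression, in which a count of 0 is 5.02. Turned back, they gave whole counts, with totals per sample between 3842977 and 8149200 in WT, between 6581818 and 10284124 in Ahr-/- and between 8788867 and 12046933 in the samples labelled Ahrr-/-. Normalized counts below are these counts divided by a size factor for each sample. In bulk RNA, fewer cells of a type and less RNA per cell cannot be told apart.

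The labels were checked first. Ahr ranged from 13.40 to 14.40 in WT and from 14.15 to 14.67 in Ahr-/-, so its transcript was not lower in Ahr-/-. A count over a whole gene checks nothing where the deleted part is not known. Ahrr, itself a target of AHR, was 10.11 ± 0.20 in WT and 5.28 ± 0.28 in Ahr-/- (SD, n = 6), and 0 to 9 normalized counts remained in the Ahr-/- samples. In the samples labelled Ahrr-/- it was 10.40 ± 0.39 (SD, n = 6) against WT at an adjusted p of 0.683 from limma, so Ahrr was not lower there and these samples are called by their label throughout. Of the AHR target list, 4 of 5 genes could be tested between WT and Ahr-/-, and all 4 were lower in Ahr-/-: Ahrr by 4.83, Cyp1b1 by 4.07, Tiparp by 2.60 and Nqo1 by 1.82 (adjusted p between 4.95e-12 and 1.56e-07 from limma). The same 4 were lower in Ahr-/- than in the samples labelled Ahrr-/-. The eosinophil receptor genes Siglecf and Ccr3 were present in every sample, at no fewer than 837 and 5286 normalized counts. Epx, the granule peroxidase, was near the floor in every genotype, between 3.03 and 23.6 normalized counts over the 18 samples.

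The 4 genes lie on 4 chromosomes. In GRCm38 (GENCODE vM21), Cybb (Entrez 13058) spans chrX:9435252-9487771 and Cyba (Entrez 13057) chr8:122424776-122432930, both on the minus strand. Ncf1 (Entrez 17969) spans chr5:134220053-134229625 on the minus strand, and Ncf4 (Entrez 17972) chr15:78244801-78262580 on the plus strand. Exons of Ncf1 share 408 bases with Gtf2ird2 on the opposite strand. Counting by strand is not stated, so reads there cannot be told apart, and Gtf2ird2 had 533 to 1702 normalized counts where Ncf1 had 7362 to 24351.

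The start regions of Cybb and Cyba, which were higher in Ahr-/-, are set beside that of Ncf1, which was called in no genotype comparison of limma on the deposited values. The RefSeq promoter table (GRCm38.p6) held 3 of the 4 members, and the windows run from 250 bases before to 30 bases after the start, 5′ to 3′ on the minus strand, at chrX:9469295-9469574, chr8:122432911-122433190 and chr5:134229596-134229875. The Cybb window lies inside the gene span given above, as its start is that of the basic coding transcript of GENCODE (9469324), and a coding transcript outside the basic set starts at 9487771. Capitals mark GATAA, the core that GATA factors bind, GAGGAA, a PU.1 type core, and GCGTG, the AHR core, on either strand, 3 motifs chosen after the values were seen.
Cybb: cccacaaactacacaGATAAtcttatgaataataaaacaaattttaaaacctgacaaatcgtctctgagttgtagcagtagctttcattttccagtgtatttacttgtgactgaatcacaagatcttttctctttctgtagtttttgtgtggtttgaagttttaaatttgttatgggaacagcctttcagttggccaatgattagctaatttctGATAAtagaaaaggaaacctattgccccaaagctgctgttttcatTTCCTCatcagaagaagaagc
Cyba: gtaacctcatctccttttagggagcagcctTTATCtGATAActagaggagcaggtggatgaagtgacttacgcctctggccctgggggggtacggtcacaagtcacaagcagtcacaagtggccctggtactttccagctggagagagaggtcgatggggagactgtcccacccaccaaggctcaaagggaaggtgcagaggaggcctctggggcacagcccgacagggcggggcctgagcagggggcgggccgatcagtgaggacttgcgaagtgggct
Ncf1: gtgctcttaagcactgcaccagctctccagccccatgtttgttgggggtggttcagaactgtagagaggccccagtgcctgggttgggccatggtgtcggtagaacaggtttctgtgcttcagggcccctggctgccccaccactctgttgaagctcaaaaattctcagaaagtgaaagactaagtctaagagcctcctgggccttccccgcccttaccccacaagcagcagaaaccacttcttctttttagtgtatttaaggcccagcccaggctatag
GATAA or its reverse complement was found at -235 and -36 in Cybb and at -220 and -214 in Cyba, GAGGAA on the other strand at 10 in Cybb, and none of the 3 motifs in Ncf1 (first base counted from the start at 1). Over all 32851 promoters of the table, 24.4% of windows of this length hold GATAA, 26.0% GAGGAA and 30.8% GCGTG on either strand, so GATAA is common, and GCGTG was in none of the 3 windows. A match is a description of letters, and no binding was measured.

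Per kilobase of the longest coding transcript, Ncf1 was the most abundant of the 4 transcripts in each genotype. In WT, Ncf1 had 6060 ± 948 normalized counts per kilobase, Cybb 2840 ± 430, Cyba 1190 ± 132 and Ncf4 1030 ± 165 (SD, n = 6). Ncf1 ranked 29 of 18440 genes with a length and a count in WT, Cybb 107, Cyba 321 and Ncf4 389. The order of Cyba and Ncf4 lay within their spread in WT. In Ahr-/-, Cybb rose to 4060 ± 435 and Cyba stood at 1790 ± 593, while Ncf4 was down to 700 ± 75.6 (SD, n = 6). There Cyba and Ncf4 were apart by more than their spread, and Cybb stood at 68.6% of Ncf1 against 46.9% in WT. In the samples labelled Ahrr-/-, the level per kilobase was 4820 ± 1670 for Ncf1, 2410 ± 652 for Cybb, 1480 ± 580 for Cyba and 855 ± 281 for Ncf4 (SD, n = 6).

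**Figure D1:**
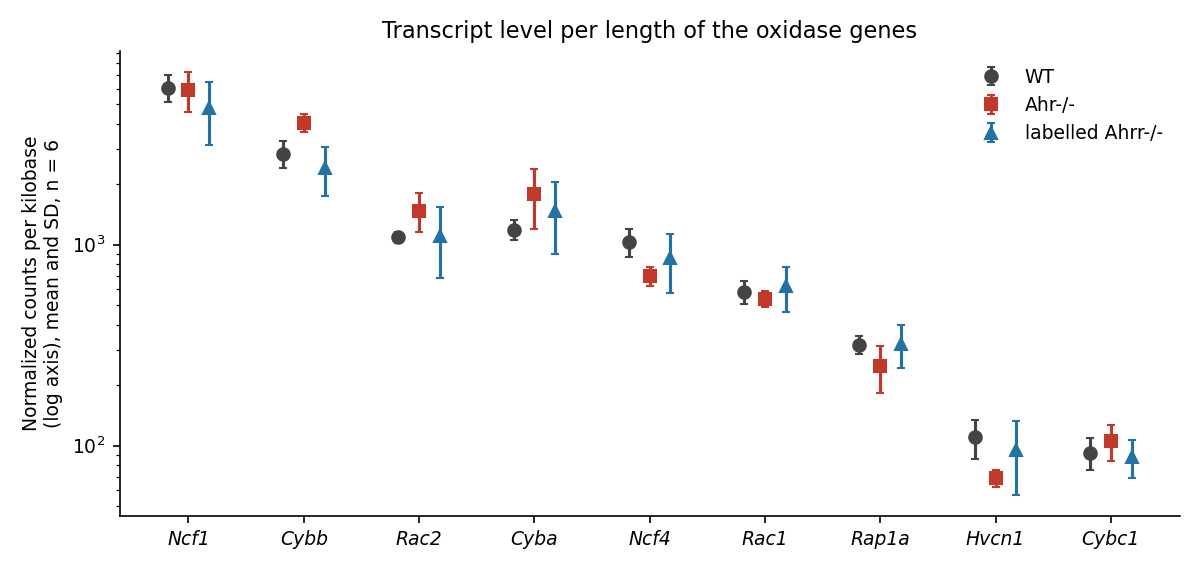
Mean normalized counts per kilobase (log axis; bars are the SD, n = 6) of the 4 members and 5 other genes of the oxidase in the 3 genotypes. Ncf1 stands highest in each genotype, and Cybb is at 2840 in WT and 4060 in Ahr-/-.

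The main question was whether oxidase transcripts differ without AHR. Between WT and Ahr-/-, Cybb and Cyba were higher in Ahr-/-, Ncf4 was lower and Ncf1 was not called in limma on the deposited values, so the membrane pair and the p40phox gene moved in opposite directions. Of all 11346 genes tested, 8.84% passed an adjusted p of 0.05 in limma with sex as covariate, against 3 of the 4 members. The 6 samples of one genotype all lay above the 6 of the other in 4.51% of genes and in 2 members, Cybb and Ncf4. With 4 genes, these counts describe the members and set nothing apart.

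Cybb, the catalytic subunit, had between 10794 and 16111 normalized counts in WT, with a median of 13401, and between 16488 and 21703 in Ahr-/-, with a median of 19442. Every Ahr-/- sample lay above every WT sample, by a gap of 0.03 on the log2 scale. The log2 level was 13.71 ± 0.22 in WT and 14.23 ± 0.16 in Ahr-/- (SD, n = 6). WT minus Ahr-/- gave -0.52, with a standard error of 0.14 and an adjusted p of 0.0332 from limma, and the mean normalized count was 1.43-fold higher in Ahr-/-. This call is close to the threshold. It was lost without any 1 of WT F1, F3, M2 and M3 or Ahr-/- F1, F2 and M3 (adjusted p between 0.0501 and 0.0900), with differences between -0.58 and -0.45 over all 12 samples left out in turn. The Cybb call was also lost with no minimum mean, with all 18 samples fitted together and without WT F3 and Ahr-/- F3 together.

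Cyba, the partner that stabilizes gp91phox, ran from 788 to 1032 normalized counts in WT around a median of 856, and from 756 to 1888 in Ahr-/- around a median of 1392. The genotypes overlapped: the 3 Ahr-/- females and the male M3 lay above every WT sample, and the males M1 and M2 lay within or below the WT range. WT minus Ahr-/- gave -0.50 for Cyba, with a standard error of 0.14 and an adjusted p of 0.0394 from limma. The call was lost without any 1 of WT F1, F2 and F3 or Ahr-/- F1, F2, F3 and M3 (adjusted p between 0.0550 and 0.0981), with differences between -0.60 and -0.41, and it was also lost without the sex covariate (adjusted p = 0.112). The same held with no minimum mean, without the mean-variance trend, with all 18 samples fitted together and without WT F3 and Ahr-/- F3 together.

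Ncf4, the phosphoinositide-binding subunit, ran from 1185 to 1793 normalized counts in WT around a median of 1526, and from 865 to 1160 in Ahr-/- around a median of 1055. Every WT sample lay above every Ahr-/- sample, by a gap of 0.03 on the log2 scale. The level was 10.60 ± 0.23 in WT and 10.08 ± 0.15 in Ahr-/- (SD, n = 6). WT minus Ahr-/- gave 0.52 for Ncf4, with a standard error of 0.12 and an adjusted p of 0.0104 from limma, and the mean normalized count was 1.47-fold higher in WT. The Ncf4 call held without each of the 12 samples in turn (adjusted p between 0.00240 and 0.0298) and was lost when all 18 samples were fitted together (adjusted p = 0.0957).

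Ncf1, the organizer, ran from 14502 to 22214 normalized counts in WT around a median of 16759, and from 14219 to 24351 in Ahr-/- around a median of 15776. The ranges overlapped almost wholly, and the difference was 0.05 (95% interval -0.27 to 0.37, adjusted p = 0.874 from limma).

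**Figure D2:**
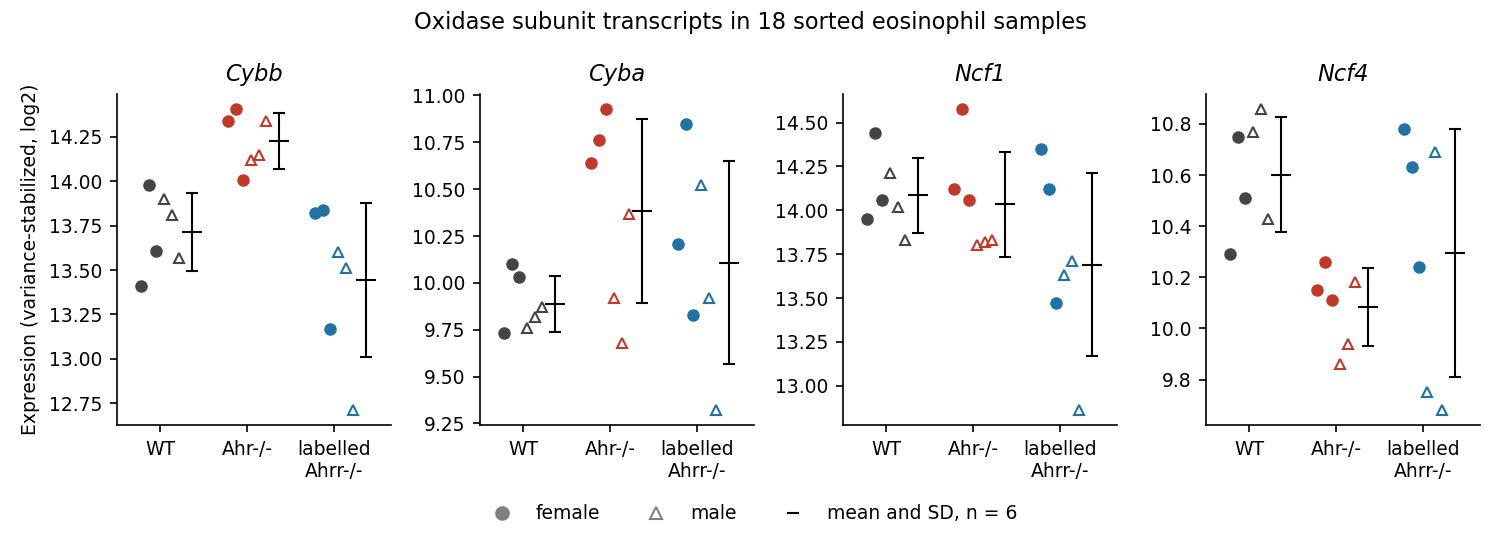
Expression (variance-stabilized, log2) of each member in every sample, circles for females and triangles for males, with the mean and SD (n = 6) beside each genotype. For Cybb and Ncf4 the WT and Ahr-/- samples do not overlap, and for Cyba and Ncf1 they do.

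Differences between 2 genes within a sample depend little on how samples were scaled to each other. Cybb minus Ncf4 on the log2 scale ran from 2.95 to 3.23 in WT around a median of 3.12, and from 3.90 to 4.27 in Ahr-/- around a median of 4.18. The gap of 0.67 between the genotypes was wider than the range of either. The mean differed by -1.04 (exact two-sided permutation test of 6 against 6 samples, p = 0.00216, the smallest it can give, adjusted p = 0.00909 over 42 such tests). The pairs, each member against each other member and against the receptor genes Siglecf and Ccr3 in 3 comparisons, were chosen after the values were seen. Cyba minus Ncf4 was -0.71 ± 0.24 in WT and 0.30 ± 0.38 in Ahr-/- (SD, n = 6), with no overlap and the same exact p and adjusted p.

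Set against the 2 eosinophil receptor genes, Cybb gave 2 answers and Ncf4 gave 1. Siglecf, the receptor used for the sort, had 1619 to 2306 normalized counts in WT and 2309 to 3113 in Ahr-/-, and its own difference of -0.37 missed the threshold (adjusted p = 0.0529 from limma). Ccr3, the eotaxin receptor, hardly differed, at -0.04 (adjusted p = 0.902 from limma). Cybb minus Siglecf was 2.69 ± 0.09 in WT and 2.83 ± 0.14 in Ahr-/- (SD, n = 6), ranges that overlapped (exact permutation p = 0.0584, adjusted p = 0.0982), and it passed without the Ahr-/- sample F3 (-0.19, adjusted p = 0.0404). Cybb minus Ccr3 was 0.12 ± 0.09 in WT and 0.60 ± 0.12 in Ahr-/- (SD, n = 6), without overlap (exact permutation p = 0.00216, adjusted p = 0.00909). Whether Cybb was higher in Ahr-/- thus depended on the gene it was set against, and Cybb moved nearly in step with Siglecf. Ncf4 was lower in Ahr-/- against both: Ncf4 minus Siglecf was -0.42 ± 0.08 in WT and -1.32 ± 0.08 in Ahr-/-, and Ncf4 minus Ccr3 was -2.99 ± 0.11 and -3.55 ± 0.13 (SD, n = 6; exact permutation p = 0.00216 and adjusted p = 0.00909 for each).

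Ncf1 also depended on the reference, while Cyba passed against neither. Cyba minus Siglecf differed by -0.12 and Cyba minus Ccr3 by -0.46 (exact permutation p of 0.535 and 0.0238, adjusted p of 0.702 and 0.0526). Ncf1 minus Siglecf was lower in Ahr-/-, at 3.06 ± 0.20 and 2.64 ± 0.29 (SD, n = 6; exact permutation p = 0.0173, adjusted p = 0.0404), and Ncf1 minus Ccr3 passed no test (0.09, adjusted p = 0.600). The fit over all genes was also repeated with every sample scaled to Siglecf and then to Ccr3, 2 alternatives added after the values were seen. Scaled to Siglecf, Cybb at -0.15 and Cyba at -0.12 were not called between WT and Ahr-/-, Ncf1 at 0.42 and Ncf4 at 0.89 were (adjusted p of 0.252, 0.360, 0.0161 and 6.17e-06 from limma), and 4468 genes were called. Scaled to Ccr3, Cybb at -0.48 and Ncf4 at 0.56 were called, Cyba at -0.46 and Ncf1 at 0.09 were not (adjusted p of 0.0112, 0.00514, 0.103 and 0.816 from limma), and 432 genes were called. Ncf4 was thus the 1 member called under each of the 3 scalings. Whether either gene stands for the number of eosinophils in a sample was not tested.

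**Figure D3:**
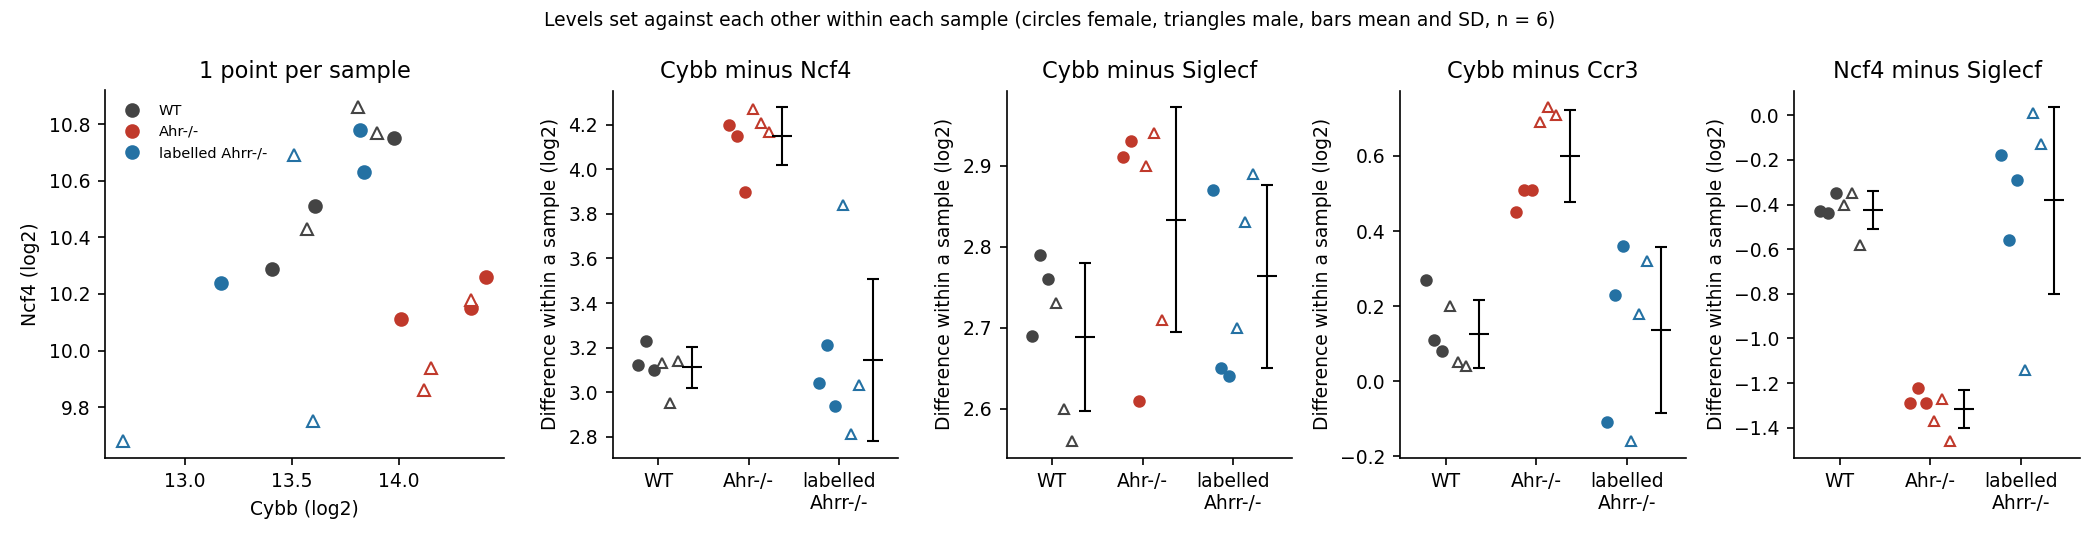
Left, Ncf4 against Cybb (both log2), 1 point per sample; right, 4 differences between 2 genes within each sample, circles for females and triangles for males, bars the mean and SD (n = 6). Cybb minus Ncf4 is 3.90 or more in every Ahr-/- sample and 3.23 or less in every WT sample, while Cybb minus Siglecf overlaps between all genotypes and Cybb minus Ccr3 does not overlap between WT and Ahr-/-.

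The other genes of the complex were mostly not called between WT and Ahr-/-. Of 5 followed here, Hvcn1 passed and Rac1, Rac2, Rap1a and Cybc1 did not, where 8.84% of all genes tested passed. Hvcn1, the proton channel that balances the charge moved by the oxidase, had a mean of 309 normalized counts in WT and 193 in Ahr-/-. On the variance-stabilized scale WT minus Ahr-/- gave 0.53, with a standard error of 0.13 and an adjusted p of 0.0188 from limma. Rac2, the RAC GTPase of blood cells, missed the threshold at -0.40 (adjusted p = 0.0613 from limma). For Rac1 the difference was 0.10, for Rap1a 0.36 and for Cybc1, a chaperone of the cytochrome, -0.14 (adjusted p of 0.599, 0.105 and 0.546 from limma). With samples scaled to Siglecf, Rac1 (0.48) and Rap1a (0.73) were called beside Hvcn1 (adjusted p of 0.0259, 0.0128 and 0.00216 from limma). That scaling takes the difference of Siglecf itself, -0.37, from every gene, and 4468 genes were called with it. With samples scaled to Ccr3 none of the 5 was called, and 432 genes were called in all. Hvcn1 was then at 0.57, no smaller than on the deposited values (adjusted p = 0.140 from limma).

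Among 26 kinases and exchange factors upstream of the oxidase, 1 was higher in WT and 3 were lower, with a median difference of -0.10 against 0.00 over all genes tested. Of all 11346 genes tested, 8.84% were called. Pak1, a RAC-activated kinase that phosphorylates p47phox, was 9.12 ± 0.22 in WT and 10.23 ± 0.12 in Ahr-/- (SD, n = 6), without overlap, which is -1.11 with a standard error of 0.10 and an adjusted p of 1.91e-06 from limma. Pik3cg, the PI3K gamma catalytic subunit, differed by -0.45 and Prex1, a RAC exchange factor it activates, by -0.42 (adjusted p of 0.0103 and 0.0313 from limma). Vav2, another exchange factor, was higher in WT, 8.85 ± 0.13 against 8.17 ± 0.25 (SD, n = 6), without overlap (adjusted p = 0.00191 from limma). Pak1 was thus 2.28-fold higher in Ahr-/- in mean normalized counts, and Vav2 1.75-fold higher in WT. The Prex1 call was lost in 8 of the 12 fits that left out 1 sample, and the Pak1, Pik3cg and Vav2 calls in none.

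NADPH feeds the oxidase. For the 11 genes listed under NADPH supply, the cofactor that each enzyme uses in these cells was not measured. Of this list, 1 gene was higher in WT and 2 were lower, with a median difference of -0.24. For this and the other lists of the paragraph, the share called over all genes tested is again 8.84%. Nnt, the mitochondrial transhydrogenase, was 9.01 ± 0.20 in WT, 10.13 ± 0.14 in Ahr-/- and 9.65 ± 0.22 in the samples labelled Ahrr-/- (SD, n = 6), and WT minus Ahr-/- gave -1.11, with a standard error of 0.11 and an adjusted p of 5.16e-06 from limma. Genotype and substrain, which is not given, cannot be told apart for Nnt. G6pdx, which opens the pentose phosphate pathway, differed by -0.42 and Me2, a mitochondrial malic enzyme, by 0.53 (adjusted p of 0.0110 and 0.0393 from limma). Among 20 genes of superoxide and peroxide handling, 16 were tested and 0 passed in limma (4 had an unadjusted p under 0.05, as did 2638 of all 11346 genes). Of 9 other NADPH oxidases and partners 2 were tested, and Duox2, an epithelial oxidase, was higher in WT by 0.91 (adjusted p = 0.0241 from limma). Its mean was 217 normalized counts in WT and 94 in Ahr-/-. Of the 8 epithelial markers below, 7 were higher in WT, 3 of them with an unadjusted p under 0.05, Fabp1 was lower and 0 were called in limma; the list as a whole passed no test (exact permutation test of 6 against 6 samples, p = 0.262, adjusted p = 0.403). Of 16 transcription factors known at phagocyte oxidase genes, 14 were tested and 2 were lower in WT, Meis1 by -0.48 and Satb1 by -0.50 (adjusted p of 0.0326 and 0.0396 from limma). The list's median difference was 0.07. Of the calls in this paragraph, those of Satb1, Me2, Meis1 and Duox2 were lost in 10, 7, 6 and 5 of the 12 fits that left out 1 sample, and those of Nnt and G6pdx in none. Of the 11 called genes from Hvcn1 on, Pak1, Vav2 and Nnt were also called with samples scaled to Siglecf and with samples scaled to Ccr3, and G6pdx, Prex1 and Satb1 with neither. These last 3 were at -0.05, -0.05 and -0.13 scaled to Siglecf and at -0.38, -0.38 and -0.46 scaled to Ccr3. Me2 and Duox2 lost their calls scaled to Ccr3 alone, with differences no smaller than before (0.57 and 0.96). Pik3cg and Meis1 lost theirs scaled to Siglecf alone (-0.08 and -0.11). Scaling to Siglecf also added calls for Irf8 (0.95), Prdx1 (0.78), Prdx5 (0.68) and Txn1 (0.79), each higher in WT (adjusted p between 0.00113 and 0.0303 from limma), and scaling to Ccr3 for none of these 4. Over all genes tested, 4468 were called scaled to Siglecf and 432 scaled to Ccr3.

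**Figure D4:**
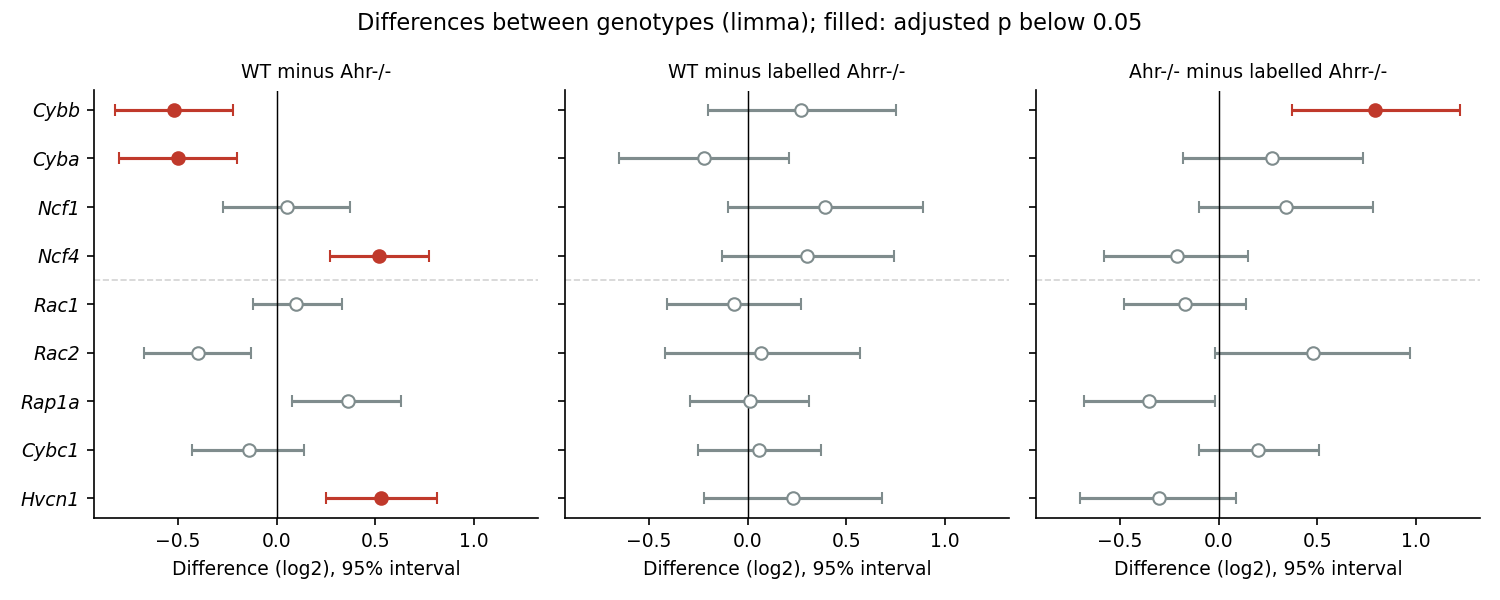
Differences between genotypes on the log2 scale with 95% intervals from limma, for the 4 members (above the dashed line) and 5 other genes of the oxidase. Filled points passed an adjusted p of 0.05: Cybb, Cyba, Ncf4 and Hvcn1 between WT and Ahr-/-, and Cybb between Ahr-/- and the samples labelled Ahrr-/-.

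Against the samples labelled Ahrr-/-, which share the WT controls, 0 of 4 members passed and 0.0779% of 11546 genes did (limma). The unadjusted p was not below 0.05 for any member. In these samples Cybb had 6622 to 14603 normalized counts (median 11945), Cyba 578 to 1780 (median 1013), Ncf1 7362 to 20878 (median 13003) and Ncf4 757 to 1691 (median 1333). For all 4 genes the lowest sample was the male M3, and each range overlapped that in WT. The WT minus Ahrr-/- differences had 95% intervals of -0.20 to 0.75 for Cybb, -0.65 to 0.21 for Cyba, -0.10 to 0.89 for Ncf1 and -0.13 to 0.74 for Ncf4. No member had its 6 samples all on one side, as 0.459% of genes did. Within a sample, Cyba minus Siglecf was -1.14 ± 0.23 in WT and -0.57 ± 0.19 in the samples labelled Ahrr-/- (SD, n = 6), without overlap (exact permutation p = 0.00216, adjusted p = 0.00909), and Cyba minus Ccr3 differed by -0.51 (exact permutation p = 0.0173, adjusted p = 0.0404). In the limma fits over all genes the same differences were not called (adjusted p of 0.359 scaled to Siglecf and 0.714 scaled to Ccr3). Of 26 kinases and exchange factors, 11 NADPH supply genes and 5 other oxidase genes, 0 passed in limma, and 2, 2 and 0 had an unadjusted p under 0.05, as did 853 of all 11546 genes.

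Compared directly, Ahr-/- and the samples labelled Ahrr-/- differed in Cybb. Of 11474 genes 14.9% passed in limma on the deposited values, and of the members Cybb alone, at 14.23 ± 0.16 against 13.44 ± 0.43 (SD, n = 6), which is 0.79 with a standard error of 0.20 and an adjusted p of 0.0198 from limma. Cybb was also the 1 member without overlap, with a gap of 0.17, where 4.61% of genes had none. The call was lost without the Ahr-/- sample M3 (0.74, adjusted p = 0.0549). Differences of the other members were 0.27 for Cyba, 0.34 for Ncf1 and -0.21 for Ncf4 (adjusted p of 0.391, 0.263 and 0.406 from limma). Siglecf differed here too, by 0.72 (adjusted p = 0.0200 from limma), and Cybb minus Siglecf was 2.83 ± 0.14 and 2.76 ± 0.11 (SD, n = 6; exact permutation p = 0.303, adjusted p = 0.439). Cybb minus Ccr3 was 0.60 ± 0.12 and 0.14 ± 0.22 (SD, n = 6; exact permutation p = 0.00216, adjusted p = 0.00909). In the fit over all genes Cybb was called under neither scaling, at 0.07 with samples scaled to Siglecf and 0.46 with samples scaled to Ccr3 (adjusted p of 0.621 and 0.122 from limma). The other 3 members were called with samples scaled to Siglecf, all lower in Ahr-/-, Ncf4 at -0.93, Cyba at -0.45 and Ncf1 at -0.38 (adjusted p of 0.00222, 0.0357 and 0.0353 from limma). Cyba and Ncf1 thus turned to the other sign. Within a sample, Cyba minus Siglecf and Ncf1 minus Siglecf did not pass (exact permutation test, adjusted p of 0.0744 and 0.0591). With samples scaled to Ccr3 none of the 4 was called, and 332 genes were called in all. Cyba was then at -0.05, again of the other sign, Ncf1 at 0.01 and Ncf4 at -0.54 (adjusted p of 0.895, 0.964 and 0.191 from limma). Ncf4 minus Siglecf was -1.32 ± 0.08 in Ahr-/- and -0.38 ± 0.42 in the samples labelled Ahrr-/- (SD, n = 6), without overlap (exact permutation p = 0.00216, adjusted p = 0.00909). Without the samples M1, F3 and M3 labelled Ahrr-/-, the 3 highest in epithelial markers, an alternative added after the values were seen, Ncf4 was called (-0.60, adjusted p = 0.00665 from limma) and Cybb was not (0.53, adjusted p = 0.0598 from limma). Cybb minus Ncf4 was between 2.81 and 3.84 in the samples labelled Ahrr-/-, all below the Ahr-/- samples, where the male M1 was at 3.84 and the next sample at 3.21.

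In the same comparison, Pak1 at 0.99, Pik3cg at 0.71 and Prex1 at 0.52 were higher in Ahr-/-, and Vav2 at -0.50 was lower (adjusted p between 3.27e-05 and 0.0491 from limma), 3 of 26 upstream genes in one direction and 1 in the other. To set beside this and the other lists of the paragraph, 14.9% of all 11474 genes tested were called. The Prex1 call was lost in 9 and the Vav2 call in 10 of the 12 fits that left out 1 sample. Among genes listed under NADPH supply, Nnt at 0.47 and G6pdx at 0.45 were higher and Me2 at -0.69 was lower (adjusted p of 0.0215, 0.0340 and 0.0152 from limma). These calls were lost in 4, 8 and 0 of the fits that left out 1 sample. Prdx1, Prdx5 and Txn1, 2 peroxidases and thioredoxin, were lower in Ahr-/-, by -0.95, -0.48 and -0.83, 3 of 17 tested genes of superoxide and peroxide handling (adjusted p between 0.0432 and 0.0490 from limma). These calls were lost in 8, 10 and 8 of the fits, and Prdx1, Txn1 and Me2, but not Prdx5, were highest, within that genotype, in the samples M1, F3 and M3 labelled Ahrr-/-, the 3 highest there in epithelial markers (Txn1 at 10472, 4898 and 5971 normalized counts, against 2000 to 4029 in the other 3, and Me2 at 1095, 1124 and 1352, against 594 to 796). The WT sample highest in Me2, the female F1 at 1248, was also the WT sample highest in epithelial markers. Prdx5 was highest in F2, at 1577, and lowest in M3, at 692. Of the 14 transcription factors, Meis1 (0.71) and Satb1 (0.79) were higher and Irf8 (-0.82) and Cebpa (-0.69) lower (adjusted p between 0.0114 and 0.0324 from limma), with calls lost in 8 fits for Meis1, 3 for Irf8 and 0 for the other 2.

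The scaling mattered for these genes as it did for Cybb. Scaling to Siglecf takes the difference of Siglecf itself from every gene. Over all genes tested, 8673 were called with it, 332 scaled to Ccr3 and 1708 on the deposited values (limma). With samples scaled to Siglecf, Pik3cg (-0.01), Prex1 (-0.20), Nnt (-0.25), G6pdx (-0.27) and Meis1 (-0.01) turned to the other sign, and Pak1 (0.27) and Satb1 (0.07) were no longer called. With samples scaled to Ccr3, all 7 kept their direction with smaller differences, 0.12 to 0.66, and 0 were called (adjusted p between 0.147 and 0.766 from limma). Of the 7 pathway genes called lower in Ahr-/- and named in the paragraph above, Vav2, Me2, Irf8, Cebpa, Prdx5, Prdx1 and Txn1, all kept their calls scaled to Siglecf, and only Prdx1 and Txn1 did scaled to Ccr3 (adjusted p of 0.0363 and 0.0345, and between 0.0646 and 0.108 for the other 5, from limma). The differences of those 5 were larger scaled to Ccr3 than on the deposited values: Vav2 -0.82, Me2 -1.01, Irf8 -1.15, Cebpa -1.02 and Prdx5 -0.81. Among the 5 other oxidase genes 0 passed an adjusted p in limma on the deposited values, and 1, Rap1a, had an unadjusted p under 0.05 (0.0403). Scaled to Siglecf, where 8673 genes were called in all, Hvcn1 (-1.03), Rac1 (-0.89), Rap1a (-1.07) and Cybc1 (-0.52) were called lower in Ahr-/- (adjusted p between 0.00150 and 0.0286 from limma). Scaled to Ccr3, none of the 5 was called.

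Cybb lies on the X chromosome, so males and females were compared over all genotypes, 9 against 9 samples. Of 11468 genes 3.06% passed with genotype as covariate, and 0 of the 4 members. An unadjusted p under 0.05 in limma was found for 2145 of the genes and for 2 of the members. Cybb was close between the sexes, with a male minus female difference of -0.10 (95% interval -0.42 to 0.22, adjusted p = 0.768 from limma). Cyba at -0.43 and Ncf1 at -0.38 were those 2 (adjusted p of 0.148 and 0.200 from limma), and Ncf4 differed by -0.17. All 4 differences were negative, that is lower in males. Within WT, Cybb (13.76 in males and 13.67 in females) and Ncf4 (10.69 and 10.52) ran the other way. The genotype by sex terms gave 0 calls among 11346 genes for WT and Ahr-/- (0% called; 533 had an unadjusted p under 0.05) and 0 among 11546 for WT and the samples labelled Ahrr-/- (0%; 544). Cyba had the lowest unadjusted p of the members, 0.0167 (adjusted p = 0.954 from limma): it was 10.77 ± 0.15 in Ahr-/- females and 9.99 ± 0.35 in Ahr-/- males (SD, n = 3), against 9.95 ± 0.19 and 9.82 ± 0.05 in WT. An MHC-II gene moved with the same split, the other way: H2-Aa had 102 to 214 normalized counts in Ahr-/- females and 804 to 1556 in Ahr-/- males (interaction -2.10, unadjusted p = 0.00120, adjusted p = 0.954 from limma), and over all genotypes it was higher in males by 1.48 (adjusted p = 0.0285 from limma).

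How far the members varied together from sample to sample was read over all samples and within genotypes. Over the 18 samples Pearson's r was 0.73 for Cybb and Ncf1 (Spearman's rho 0.56; permutation p of 0.000650 and 0.0174, adjusted over 6 pairs 0.00390 and 0.0523). It was 0.60 for Ncf1 and Ncf4 (rho 0.57; permutation p of 0.00616 and 0.0146, adjusted 0.0170 and 0.0523) and 0.59 for Cybb and Cyba (rho 0.52; permutation p of 0.00848 and 0.0295, adjusted 0.0170 and 0.0591). For Cyba and Ncf1 it was 0.54 (rho 0.49; permutation p of 0.0197 and 0.0427, adjusted 0.0296 and 0.0640). Without the 2 samples farthest from the median of the first gene, r was 0.38, 0.58, 0.41 and 0.58 in that order, and under quantile normalization none of these 4 kept an adjusted p below 0.05. For Cybb and Ncf4 r was 0.12 (rho -0.09; permutation p of 0.646 and 0.722) and for Cyba and Ncf4 0.02 (rho -0.03; permutation p of 0.934 and 0.908). Since the WT and Ahr-/- samples of Cybb and Ncf4 do not overlap, the pooled value says little for that pair. Within WT it was 0.92 (rho 0.77), within Ahr-/- 0.66 (rho 0.83) and within the samples labelled Ahrr-/- 0.69 (rho 0.60), with exact permutation p of 0.0278, 0.186 and 0.178 for r and 0.103, 0.0583 and 0.242 for rho (n = 6), of which none passed after adjustment over 18 such tests (the lowest adjusted p was 0.150). Pearson's r was positive for all 6 pairs in each genotype, between 0.19 and 0.96. On deviations from the mean of each genotype and sex, 5 of the 6 pairs had an adjusted p below 0.05, Cybb and Ncf4 at 0.67 among them (permutation test over 18 samples, adjusted p = 0.00301), and Cyba and Ncf4 did not (adjusted p = 0.260). Deviations of the 3 samples that share a mean are not independent, and the test shuffled all 18 freely, so its p is too small. Other gene pairs were not tested in this way.

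The genes whose pattern over the 18 samples was most like each member were taken from the 11467 other genes tested, as a description. For Cybb they were Adamdec1 (r = 0.97), Pik3cg (0.96) and Slc44a2 (0.96), with Siglecf at rank 6 (0.96). For Cyba they were Myl12b, Gnai2 and Selplg (each 0.94), and Rac2 had rank 12 (0.91). Ncf1 was most like Lrrfip1 (0.96), Lpcat2 (0.94) and Zswim6 (0.93), and Ncf4 most like Tbc1d2b (0.91), Ston2 (0.90) and Rasgrp4 (0.90). No member was among the 500 genes most like another.

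Other phagocytes also make oxidase subunits, so 10 lists of cell type markers were followed as mean log2 levels, with exact permutation tests of 6 against 6 samples for WT against each other genotype. The eosinophil list (10 genes) was higher in Ahr-/-, 9.29 ± 0.14 against 8.85 ± 0.17 in WT (SD, n = 6), without overlap (exact permutation p = 0.00216, adjusted over 20 tests 0.0433), in the same samples in which Cybb was higher. Its summed level ran from 25435 to 39263 normalized counts in WT around a median of 35885, from 39513 to 50846 in Ahr-/- around 46103 and from 14848 to 39998 in the samples labelled Ahrr-/- around 33113, and Alox15 made up 45.3% to 59.6% of it by sample. The lowest, 14848, was the male M3 labelled Ahrr-/-, the sample lowest in all 4 members. Ear6 had no count in the samples labelled Ahrr-/-. Between WT and Ahr-/-, Prg2, a granule protein gene, gave -2.30, the largest change among the tested genes of the list (adjusted p = 3.47e-07 from limma). Siglece at -0.66 and Alox15 at -0.58 were also called (adjusted p of 0.00824 and 0.0230 from limma). Siglecf at -0.37, Il5ra at -0.35 and Ccr3 at -0.04 were not (adjusted p of 0.0529, 0.179 and 0.902 from limma). Epx, Ear1, Ear2 and Ear6 were too low to be tested, and the list without Prg2 was not tested.

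The neutrophil list (10 genes) was higher in the samples labelled Ahrr-/-, 7.97 ± 0.54 against 7.34 ± 0.16 in WT (SD, n = 6; exact permutation p = 0.00433, adjusted p = 0.0433). Its sum was 24276 to 49049 normalized counts in WT (median 36202), 56089 to 113776 in Ahr-/- (median 84333) and 24514 to 45794 in the samples labelled Ahrr-/- (median 35717). Retnlg alone made up 88.1% to 99.3% of these sums by sample. The other genes of the list differed among themselves. Ly6g had at most 9.67 normalized counts in any sample, and Elane had 8.60 in the female F2 labelled Ahrr-/- and no count elsewhere. Ngp, Camp and Ltf were highest in that sample, at 432, 202 and 172, and next in the Ahr-/- female F3, at 216, 101 and 80.1, while Cxcr2 had 430 to 1110 in every sample. Between WT and Ahr-/-, Retnlg (-1.21, without overlap) and Cxcr2 (-0.65) were higher in Ahr-/-, as Cybb was, and Mmp8 (0.92) was lower (adjusted p of 0.00453, 0.0198 and 0.00677 from limma); S100a8, S100a9, Ngp and Ltf were not called, and the list as a whole passed no test (exact permutation test of 6 against 6 samples, p = 0.455, adjusted p = 0.649). S100a8 was 7.30 ± 0.28 in WT and 9.36 ± 0.56 in the samples labelled Ahrr-/- (SD, n = 6; adjusted p = 0.000667 from limma), and S100a9 was also higher there, WT minus Ahrr-/- being -2.10 (adjusted p = 0.000220 from limma).

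The epithelial list (8 genes) summed to 3451 to 13946 normalized counts in WT (median 5546), 2653 to 6286 in Ahr-/- (median 5001) and 4031 to 19194 in the samples labelled Ahrr-/- (median 13107), where M1, F3 and M3 were highest. No gene was at 0, and Krt8 or Cdh1 led in the total of each genotype. The lead differed by sample, and in M1 labelled Ahrr-/- it was Fabp2. The macrophage and dendritic cell list was led by Itgax in the total of each genotype, with medians of 9593, 11993 and 10842 normalized counts in WT, Ahr-/- and the samples labelled Ahrr-/-. H2-Aa reached 2338 although MHC-II- cells were sorted, and C1qa stayed at or below 116. Itgax (-0.42, without overlap) and Csf1r (-0.49) were higher in Ahr-/- than in WT, as Cybb was (adjusted p of 0.0376 and 0.00693 from limma), while the mean level of the list was 7.81 in both genotypes. H2-Ab1 (0.44), Cd74 (0.41), Mertk (0.20) and C1qc (0.19) went the other way. C1qb and Cx3cr1 (each -0.12) and H2-Aa (-0.05) did not, and none of these was called in limma. C1qa, Fcgr1 and Flt3 were not tested there. B and plasma cell genes, led by Jchain (92.5%, 82.9% and 96.7% of the totals of the 3 genotypes, but 14.7% in 1 Ahr-/- sample), had medians of 548, 286 and 3898, and endothelial genes, nearly all Pecam1, 3247, 2061 and 2738. Pecam1 was lower in Ahr-/- than in WT, by 0.63 and without overlap (adjusted p = 0.00116 from limma). Medians were lower for the mast cell (84, 107 and 187), fibroblast (86, 77 and 298), monocyte (96, 168 and 251) and T cell lists (17, 10 and 23). Apart from the eosinophil and neutrophil calls, the adjusted p of the list tests was 0.0866 or more, and the part of other cells in the differences of the members was not tested.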

How the data were processed

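RNA of sorted eosinophils was made into cDNA and libraries (NuGEN Ovation) and sequenced from one end (75 bases or longer). The authors aligned them to GRCm38 (Ensembl release 86), counted genes with nf-core/rnaseq (RSEM 1.3.0, STAR 2.5.2 and R 4.0.3 in the processing notes) and deposited variance-stabilized log2 values from DESeq2. These were used as deposited, and 100% turned back into whole counts (tolerance 0.0001). Of 22708 genes, 22685 matched a RefSeq gene by ID. limma 3.58.1 in R 4.3.3, with a mean-variance trend and sex as covariate, tested genes with a mean at least 1 above the lowest value, with Benjamini-Hochberg adjustment over all of them. Total counts were 3842977 to 12046933, so low counts are least precise in WT. No libraries of a genotype agreed within counting noise (chi-square per degree of freedom 9.41 or more). Named genes are the members, 5 other oxidase genes, each pathway list gene past the threshold in a genotype comparison and the 3 genes most like each member; 1 gene that this rule names is not reported here. Marker genes were singled out after their values were seen. Members and lists (8 pathway and 10 marker lists) were chosen with earlier results of these data known. Scripts were tested on simulated data. Tables, permutation tests and figures were made in Python 3.11.15 with scipy 1.17.1, numpy 2.4.6, matplotlib 3.10.9 and pandas 2.3.3. Alternatives were filters, scalings, log2(count + 1), limma voom on recovered counts, other covariates, a block and leaving out samples, and, added after the values were seen, scaling to Siglecf or Ccr3, leaving out samples together and differences between 2 genes within a sample.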

Additional observations from a re-analysis of the deposited data

Results flagged for a closer look

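Single samples that lay far from the other 5 of their genotype were looked for in the members, the marker lists and 6 differences between genes, 60 groups in all, of which chance flags about 1 in 20, and 4 were found. Cybb minus Ncf4 was 3.90 in the Ahr-/- female F3 and 4.15 to 4.27 in the others. In that sample the mean of the neutrophil list was 8.57, against 7.30 to 7.38, and that of the T cell and innate lymphocyte list 5.72, against 5.17 to 5.37. In the female F2 labelled Ahrr-/- the neutrophil mean was 9.03, against 7.63 to 8.03. No level of Cybb, Cyba, Ncf1 or Ncf4 itself stood apart in this way.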

How the results depend on the processing

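Over all alternatives no member changed direction where it was called, but the Cybb and Cyba calls depended on many choices. Between WT and Ahr-/-, Cybb was -0.52 and Cyba -0.50 with no minimum mean (adjusted p of 0.0691 and 0.130; 623 genes called), Cyba -0.50 without the trend (0.0502) or the sex covariate (0.112), and Cybb -0.52, Cyba -0.50 and Ncf4 0.52 with all 18 samples fitted (0.132, 0.178 and 0.0957; 553 genes), all not called. Chosen after seeing the data were the next 4 settings. Without WT F3 and Ahr-/- F3, which had 20244 and 19694 genes with a count against 15146 to 17236 in the other samples, Cybb was -0.54 and Cyba -0.42 (0.0859 and 0.155; 586 genes). Scaled to Siglecf, Cybb was -0.15, Cyba -0.12 and Ncf1 0.42 (0.252, 0.360 and 0.0161; 4468 genes), and between Ahr-/- and the samples labelled Ahrr-/- Cybb was 0.07, Cyba -0.45, Ncf1 -0.38 and Ncf4 -0.93 (0.621, 0.0357, 0.0353 and 0.00222; 8673 genes), where Cyba and Ncf1, not called at 0.27 and 0.34 before, changed sign, with G6pdx at -0.27, Nnt -0.25, Prex1 -0.20, Meis1 -0.01 and Pik3cg -0.01 reversed. Scaled to Ccr3, Cyba was -0.46 in the first comparison (0.103, with 432 genes called). In the last, Cybb was 0.46 (0.122, with 332 genes called) and Cyba -0.05, again of the other sign (0.895). Without M1, F3 and M3 labelled Ahrr-/-, Cybb was 0.53 and Ncf4 -0.60 in the last (0.0598 and 0.00665; 626 genes). There Cybb was 0.79 with no minimum mean (0.0597; 713 genes), and 828 genes were called under the stricter minimum and 994 without the sex covariate. Between WT and the samples labelled Ahrr-/-, 4 genes were called with no minimum mean, voom, median centring, log2(normalized count + 1), the replicate block or without the 3 samples, 5 with the stricter minimum, quantile normalization or scaling to Ccr3, and 14 with all 18 samples. For sex the counts were 163 with no minimum mean, 211 without the genotype covariate, 5 in WT alone, 97 scaled to Siglecf and 55 scaled to Ccr3. Leaving out 1 sample at a time gave -0.58 to -0.45 for Cybb and -0.60 to -0.41 for Cyba between WT and Ahr-/-, 0.65 to 0.86 for Cybb in the last comparison, and 623 to 1124, 4 to 25, 818 to 2574 and, for sex, 142 to 733 genes called. Within a sample it gave -0.19 to -0.12 for Cybb minus Siglecf between WT and Ahr-/-, -0.64 to -0.34 for Cyba minus Ncf4 between WT and the samples labelled Ahrr-/-, and 0.37 to 0.68 for Cyba minus Ncf4 and -0.74 to -0.46 for Ncf4 minus Ccr3 in the last comparison. Under quantile normalization r was 0.27 for Cybb and Cyba, 0.46 for Cybb and Ncf1, 0.08 for Cyba and Ncf1 and 0.57 for Ncf1 and Ncf4 (adjusted p of 0.557, 0.166, 0.768 and 0.0673). On deviations from the mean of each genotype and sex it was 0.67 for Cybb and Ncf4 (0.00301, too small a p as the shuffled deviations are not independent). With replicate numbers as a block, Cybb was -0.52 (0.0478), Cyba -0.50 (0.0495) and Ncf4 0.52 (0.0220), and correlations of samples with the same number, -0.59 to 0.47, gave no sign that the numbers pair samples. Limits are 6 samples per genotype, WT and Ahr-/- mice that were neither littermates nor cohoused, lower depth in WT, bulk RNA in which cell numbers and RNA per cell cannot be told apart, targeted transcripts that were not lower in their own knockouts, and no protein or superoxide measurement.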
